A study of Saccharomyces cerevisiae with 2 samples.

Results

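The carnitine shuttle of budding yeast was examined through its 4 genes, YAT1, YAT2, CAT2 and CRC1, out of 5449 genes measured on the arrays. They were chosen by name, as the genes annotated with these symbols, and each was read by a single probe set without a suffix letter that would mark possible cross-hybridization. Total RNA of Saccharomyces cerevisiae was measured on biotin-labelled Affymetrix arrays after 60 min at 37 °C in rich medium (YPD). The study set a strain whose only ACS2 gene is the temperature-sensitive allele acs2-Ts1 against one with wild-type ACS2. Each strain is 1 deposited sample, which the authors made as the mean of 2 arrays, so nothing below could be tested and every difference is between these samples.

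The acs2-Ts1 strain is of mating type a (MATa), carries the marker alleles his3delta1, leu2delta0, met15delta0 and ura3delta0, has its chromosomal ACS2 replaced (acs2::HygMX), and holds acs2-Ts1 on the centromeric URA3 plasmid pHT215. The wild-type ACS2 strain has the same chromosomal genotype, including the loss of chromosomal ACS2, and holds ACS2 on the centromeric URA3 plasmid pHT112-1. Both derive from BY4741. The strains are named YHT652 (acs2-Ts1) and YHT651 (wild-type ACS2). The titles of both samples contain the letters WT, so the groups rest on the genotype field. Both strains were heat shocked, and a sample at a lower temperature was not analysed here, so an effect of the impaired enzyme cannot be told apart from a difference of strain, plasmid or culture.

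Acetyl-CoA does not cross the membranes of mitochondria and peroxisomes. Carnitine acetyltransferases move the acetyl group onto carnitine, acetylcarnitine passes the membrane, and a second acetyltransferase returns the group to coenzyme A. Yeast is known to have 3 such enzymes. Cat2 lies in both the peroxisome and the mitochondrial matrix, Yat1 is associated with the mitochondrial outer membrane, and Yat2 is the remaining enzyme of the family. Crc1 is the carrier of the mitochondrial inner membrane that brings acetylcarnitine into the matrix. Yeast does not make carnitine and takes it up from the medium. These genes are known to be low on glucose and to be induced on oleate or other non-fermentable carbon sources. Acs2 makes the acetyl-CoA of the cytosol and nucleus from acetate, which places the shuttle beside the enzyme that is impaired here.

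The shuttle genes differed in direction. YAT1 was 2.78-fold higher in acs2-Ts1 than in wild-type ACS2, YAT2 was at 100.3% of its wild-type value, CRC1 was 1.69-fold lower and CAT2 was 2.04-fold lower. Values are linear intensities of probe sets, and each log2 ratio sets acs2-Ts1 over wild-type ACS2 with no constant added. At least 2-fold higher was 1 of the 4 genes, against 3.67% of all 5449 genes, and at least 2-fold lower was 1 of the 4, against 55.9% of all genes. The median log2 ratio of the 4 genes was -0.38, and that of all genes was -1.12.

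YAT1, on chromosome I (YAR035W, Watson strand by its locus tag), had an intensity of 1369 in acs2-Ts1, against 492 in wild-type ACS2. This is a log2 ratio of 1.48. A ratio as high or higher was found for 97 genes, which is 1.78% of all genes. Both values lay far above the background limit, taken as the 95th percentile of the probe sets for genes outside the species, by 29.6 times in acs2-Ts1 and by 10.01 times in wild-type ACS2.

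YAT2, on chromosome V (YER024W, Watson strand), had an intensity of 113.8 in acs2-Ts1 and 113.4 in wild-type ACS2. The log2 ratio was 0.005, and 13.5% of genes had a ratio as high or higher. YAT2 is the shuttle gene nearest to background, at 2.46 times the limit in acs2-Ts1 and 2.31 times in wild-type ACS2. LEU2, which is deleted in both strains, still read 77.5 in acs2-Ts1 and 68.0 in wild-type ACS2, and STE3, a gene of the opposite mating type, read 59.0 in acs2-Ts1 and 214 in wild-type ACS2. How much of the YAT2 signal is background was not tested. With the background limit taken off both samples the YAT2 log2 ratio was 0.07.

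CAT2, on chromosome XIII (YML042W, Watson strand), had an intensity of 185 in acs2-Ts1, against 378 in wild-type ACS2. The log2 ratio was -1.03, and the acs2-Ts1 value was 49.1% of the wild-type value. CAT2 therefore lay only just past the 2-fold line, and with 32 added to both intensities its log2 ratio was -0.92. A ratio as low or lower was found for 54.7% of genes, so the CAT2 ratio was close to that of the median gene.

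CRC1, on chromosome XV (YOR100C, Crick strand), had an intensity of 174 in acs2-Ts1 and 294 in wild-type ACS2. The log2 ratio was -0.75, which is 59.3% of the wild-type value. A ratio as low or lower was found for 66.7% of genes. The carrier gene thus had the same sign as CAT2, with a difference of 0.27 between their log2 ratios.

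**Figure D1:**
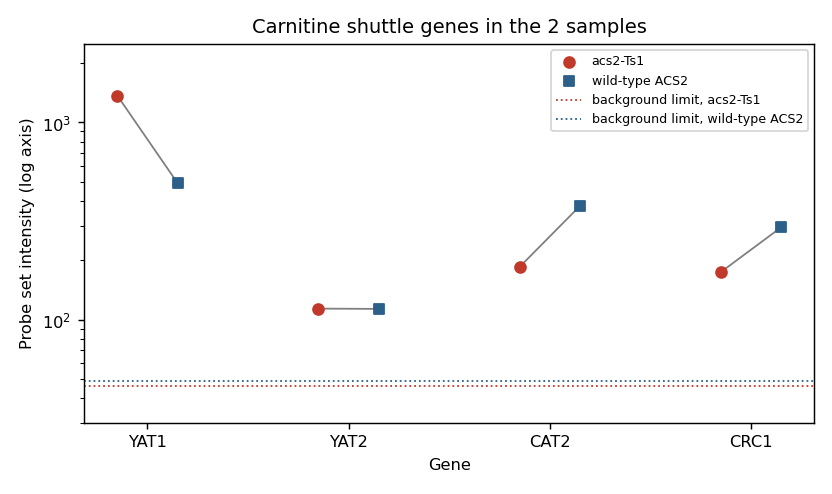
Probe set intensity (log axis) of the 4 carnitine shuttle genes in acs2-Ts1 (circles) and in wild-type ACS2 (squares), 1 deposited value per strain and therefore without error bars. Dotted lines are the background limits, 46.3 in acs2-Ts1 and 49.1 in wild-type ACS2. YAT1 is higher in acs2-Ts1, YAT2 is level, and CAT2 and CRC1 are lower in acs2-Ts1.

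No replicate spread exists for these values. As a yardstick within the arrays, 27 spiked bacterial and phage hybridization controls gave log2 ratios with a median of -0.005 and an SD of 0.17, and the 1746 probe sets outside the species had a median of -0.32 with an SD of 0.36. Measured from 0, the YAT1 ratio is larger than these spreads, as are the CAT2 and CRC1 ratios as deposited, while the YAT2 ratio is smaller. The probe sets outside the species centre on -0.32 and not on 0, so against them CRC1 and YAT2 contrast less. The controls may be those on which the authors fitted their scaling, and neither spread is that between cultures.

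The direction of CAT2 and CRC1 depends on that scaling. Most transcripts were lower in acs2-Ts1 as deposited, with a median intensity over all genes of 259 in acs2-Ts1 and 586 in wild-type ACS2, and with 86.4% of genes lower. Relative to the all-gene median, YAT1 was 2.60 higher on the log2 scale and YAT2 was 1.13 higher. On the same relative scale CRC1 was 0.37 higher and CAT2 was 0.10 higher, so both turn sign. All 4 shuttle genes thus had a ratio above that of the median gene. For CAT2 the excess is smaller than the control SD of 0.17, and 45.3% of genes had a ratio as high or higher. Centred in this way, 2 of the 4 genes were at least 2-fold higher and 0 were at least 2-fold lower, against 16.4% and 6.61% of all genes.

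**Figure D2:**
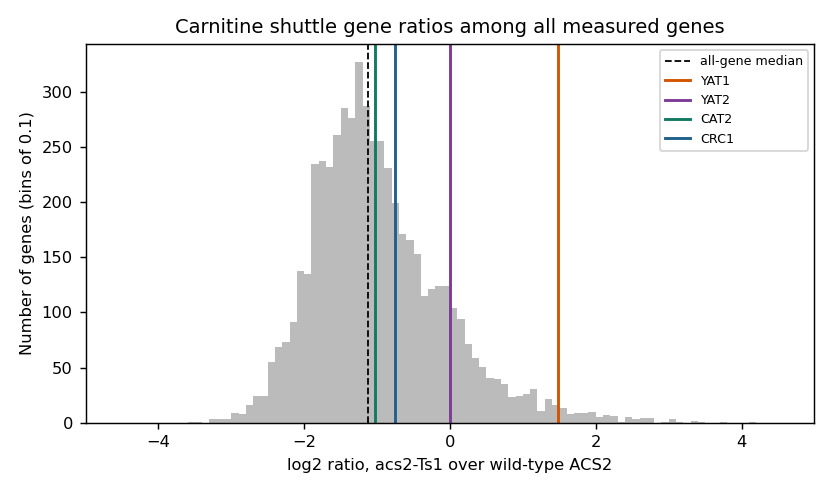
Distribution over 5449 genes of the log2 ratio (acs2-Ts1 over wild-type ACS2) (grey bars, number of genes in bins of 0.1), with coloured lines at the 4 carnitine shuttle genes and a dashed line at the all-gene median of -1.12. CAT2 and CRC1 stand near the peak, YAT2 on the upper flank at 0.005 and YAT1 in the upper tail at 1.48.

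Differences between shuttle genes do not depend on a constant factor between the samples. The YAT1 ratio exceeded that of YAT2 by 1.47 on the log2 scale, that of CRC1 by 2.23 and that of CAT2 by 2.50, the last being a 5.67-fold difference between ratios. The YAT2 ratio exceeded that of CRC1 by 0.76 and that of CAT2 by 1.03. Of 9 alternative treatments of the values, 4 shift these genes alike or not at all, so that their order cannot change, and the order YAT1, YAT2, CRC1, CAT2 was kept in the other 5. Over the alternatives YAT1 exceeded YAT2 by 1.10 to 1.79, CRC1 by 1.87 to 2.51 and CAT2 by 2.17 to 2.82. YAT2 exceeded CRC1 by 0.44 to 1.01 and CAT2 by 0.72 to 1.31, and CAT2 minus CRC1 was -0.305 to -0.255. The ratios of the 3 acetyltransferase genes were thus unequal under each of these treatments. The difference of 0.27 between CRC1 and CAT2 is of the size of the array yardsticks above.

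**Figure D3:**
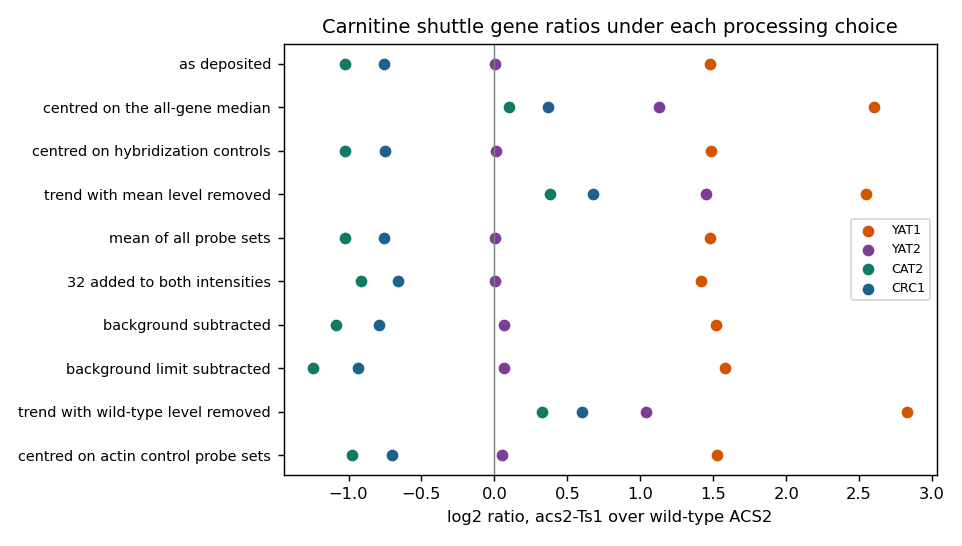
Log2 ratio (acs2-Ts1 over wild-type ACS2) of the 4 carnitine shuttle genes as deposited and under 9 alternative treatments, 1 row each. In 4 of the 9 rows of alternatives the order of the genes is fixed by construction, and in the other 5 it is also YAT1, YAT2, CRC1, CAT2, while CAT2 and CRC1 lie below 0 as deposited and above 0 when the all-gene median or the trend with level is taken out.

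The supply of carnitine was read through AGP2 and HNM1. AGP2 encodes a plasma membrane protein known for carnitine uptake, and HNM1 encodes the choline permease, which can also carry carnitine. AGP2 had an intensity of 231 in acs2-Ts1, against 505 in wild-type ACS2, a log2 ratio of -1.13 beside the all-gene median of -1.12. HNM1 read 3064 in acs2-Ts1 and 3465 in wild-type ACS2, a log2 ratio of -0.18. Neither uptake gene was higher in acs2-Ts1 as deposited, while relative to all genes HNM1 turned to 0.95.

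The other route by which peroxisomal acetyl units leave is the glyoxylate cycle, with the citrate synthase Cit2. CIT2 had an intensity of 9998 in acs2-Ts1, against 3896 in wild-type ACS2, a log2 ratio of 1.36. Of the 15 genes listed for the glyoxylate cycle, gluconeogenesis and their regulators, 3 (20.0%) were at least 2-fold higher (CIT2, ICL1 and SIP4) and 2 (13.3%) were at least 2-fold lower, against 3.67% and 55.9% of all genes. Only ICL1, for isocitrate lyase, and SIP4, for an activator of gluconeogenic genes, had a ratio above that of YAT1 in this list, at 1.53 and 2.73. At the low end were MDH3, the peroxisomal malate dehydrogenase, with -1.74, PCK1, for phosphoenolpyruvate carboxykinase, with -1.16, and the activator gene ADR1, with -0.96. The list median was 0.01, close to the ratio of YAT2. It is the ratio of MLS1, which read 51.7 in acs2-Ts1 and 51.3 in wild-type ACS2, just above the background limits. In this list 3 of 15 genes were below the limit in at least 1 sample. With centring on the all-gene median 8 of the 15 (53.3%) were at least 2-fold higher and 0 lower, against 16.4% and 6.61% of all genes. With the trend with mean level removed instead, 6 were higher and 0 lower, against 668 and 221 of all 5449 genes.

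Among 20 genes for the supply of acetate and acetyl-CoA, 0 had a ratio as high as YAT1, 1 was at least 2-fold higher and 4 (20.0%, against 55.9% of all genes) were at least 2-fold lower, with a list median of -0.08. Centred on the all-gene median, 12 (60.0%, against 16.4% of all genes) were at least 2-fold higher and 0 lower. That count depends on the scaling, since with the trend with mean level removed 6 were higher and 1 lower. Over all 5449 genes that setting gave 668 higher and 221 lower. The highest were JEN1, the lactate and pyruvate permease, at 308 in acs2-Ts1 and 122 in wild-type ACS2, and ADY2, an acetate transporter gene, at 311 in acs2-Ts1 and 156 in wild-type ACS2. With a ratio of 1.998 ADY2 lay just short of the 2-fold line. ALD6, the main cytosolic acetaldehyde dehydrogenase, had a log2 ratio of 0.44. ACS1, for the other acetyl-CoA synthetase, read 784 in acs2-Ts1 and 623 in wild-type ACS2. The lowest were 3 genes of the pyruvate dehydrogenase complex, with log2 ratios of -1.93 for PDX1, -1.59 for LAT1 and -1.35 for LPD1. PDB1 and PDA1, of the same complex, had -0.81 and -0.45, above the all-gene median of -1.12.

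Cat2 shares the peroxisome with fatty acid beta-oxidation, and that list was the lowest of those examined. Of its 18 genes, 12 (66.7%) were at least 2-fold lower in acs2-Ts1, near the 55.9% of all genes, and 0 were that much higher. The list's median log2 ratio was -1.28, which is 0.15 below that of all genes. Centred on the all-gene median, 3 of the 18 (16.7%) were at least 2-fold higher, near the 16.4% of all genes, and 2 were lower. Ratios below that of CAT2 were found for 12 of the 18. The lowest among genes above background in both samples were SPS19 and MDH3, for a dienoyl-CoA reductase and the malate dehydrogenase, and TES1, for a thioesterase, at -1.82, -1.74 and -1.68. At the other end LPX1, a peroxisomal lipase gene, had 0.16, ECI1, an enoyl-CoA isomerase gene, had -0.34, and POX1, for acyl-CoA oxidase, had -0.40. In this list 6 of 18 genes were below the background limit in at least 1 sample. Without genes under the 25th percentile of level, 7 of the 12 lower genes were left, and 2186 of the 3048 lower genes over all. That filter takes genes out of the list, so the 7 is not a count out of 18.

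Crc1 belongs to the mitochondrial carrier family, and CRC1 lay in the middle of it. Of 30 other carrier genes, 15 had a ratio below that of CRC1, and the list median of -0.78 differed from the CRC1 ratio by 0.02. As deposited, 0 of the 30 were past the 2-fold line upwards and 11 (36.7%) downwards, against 55.9% of all genes. With centring on the all-gene median these counts became 4 (13.3%, against 16.4% of all genes) and 0. FLX1, the FAD carrier gene, had -1.94, HEM25, a glycine carrier gene, had -1.88, and ANT1, for the peroxisomal ATP carrier, had -1.59. The highest were the ADP/ATP carrier genes AAC3, at 0.89, and PET9, at 0.41, and the iron carrier gene MRS3, at 0.13. No carrier gene in the list had a ratio as high as that of YAT1.

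**Figure D4:**
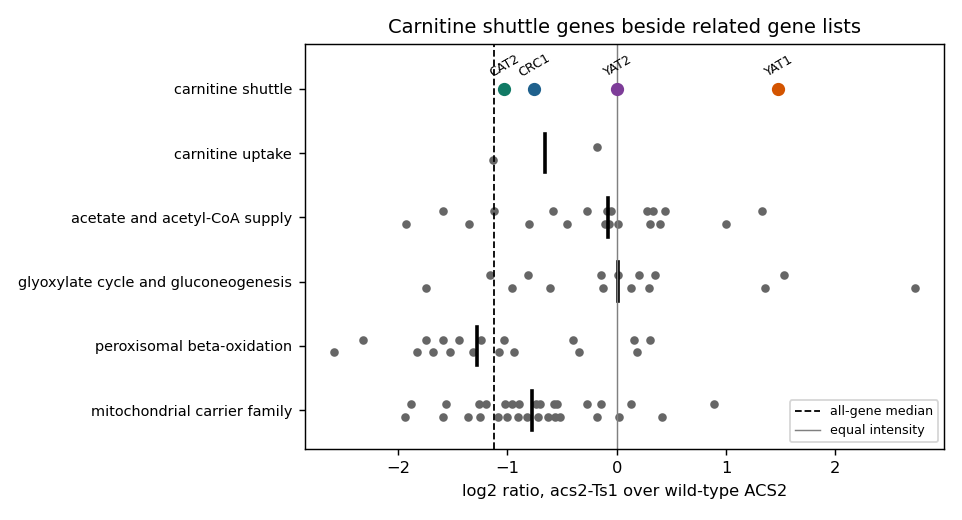
Log2 ratio (acs2-Ts1 over wild-type ACS2) for the 4 carnitine shuttle genes (coloured, named) and for the genes of 5 related lists (grey points, offset vertically for legibility), with a black bar at each list's median, a dashed line at the all-gene median of -1.12 and a grey line at equal intensity. CAT2 and CRC1 lie among the beta-oxidation and carrier genes, while YAT1 lies above all acetate supply, beta-oxidation and carrier genes shown.

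The nearest measured protein-coding genes on each side were read to see whether the shuttle genes moved with their surroundings. They were taken from the gene order of a RefSeq table of the R64 assembly, none overlaps its shuttle gene there, and no other gene lies between. YAT1 stands between MST28, at 48.9 in acs2-Ts1 and 206 in wild-type ACS2, and YAR035C-A, at 199.9 in acs2-Ts1 and 82.2 in wild-type ACS2. The MST28 value in acs2-Ts1 is just above the background limit of 46.3, so its log2 ratio of -2.08 is against a signal near background. YAR035C-A, which has no name apart from its locus tag and lies on the opposite strand by it, was 2.43-fold higher, a log2 ratio of 1.28 beside the 1.48 of YAT1. Whether the arrays read these adjoining genes apart was not tested.

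The other shuttle genes differed from their neighbours to varying degrees. YAT2 lies between PRO3, of proline synthesis, and GCD11, a translation initiation factor gene, whose log2 ratios were -0.97 and -0.78, against 0.005 for YAT2. CAT2 lies between RRN11, of RNA polymerase I transcription, and VPS71, of chromatin remodelling, whose ratios were -0.55 and -0.67, against -1.03 for CAT2. CRC1 lies between KTR1, a mannosyltransferase gene with a ratio of 0.18, and RAS1, a GTPase gene with -2.12, and at -0.75 it lay between them.

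**Figure D5:**
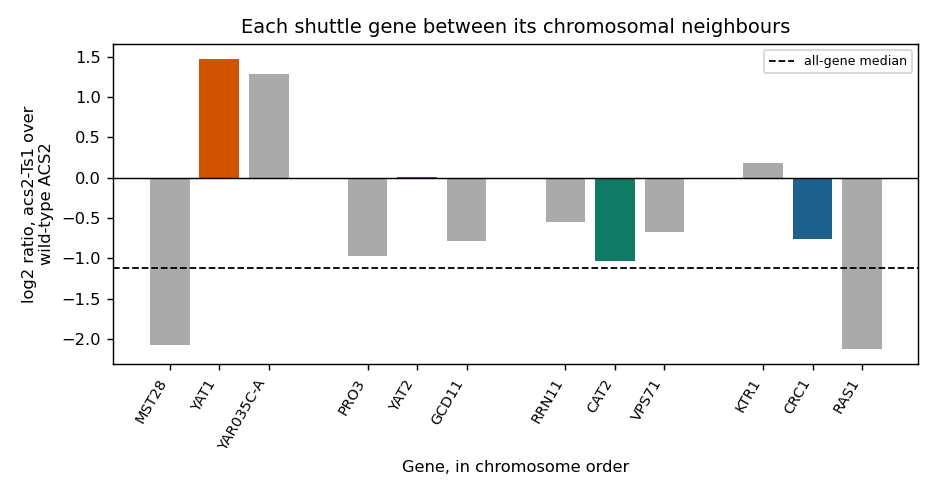
Log2 ratio (acs2-Ts1 over wild-type ACS2) of each carnitine shuttle gene (coloured) between its nearest measured protein-coding genes (grey), in chromosome order, with a dashed line at the all-gene median of -1.12. The bar of YAT2 is 0.005 and therefore hardly visible. YAT1 and YAR035C-A are high side by side, and MST28 on the other side of YAT1 is low.

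With 2 samples the pattern of a gene is its ratio alone, so many genes resemble each shuttle gene. By the absolute difference in log2 ratio over the 2 samples, among named genes above background in both, SNA2 and SET4 were nearest to YAT1, within 0.0037 and 0.013. OM14 and RPS16A were nearest to YAT2, each within 0.0013. BDH1 and MIP6 were nearest to CAT2, within 0.00031 and 0.00043, and NAB3 and RRP45 to CRC1, within 0.00035 and 0.00042. Their intensities ranged widely, with 4314 in acs2-Ts1 and 1554 in wild-type ACS2 for SNA2, and with 151 in acs2-Ts1 and 53.8 in wild-type ACS2 for SET4.

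The genotype was checked on the same arrays. ACS2 read 12426 in acs2-Ts1 and 10257 in wild-type ACS2, which does not tell the alleles apart. URA3, deleted on the chromosome and supplied by the plasmids, read 7059 in acs2-Ts1, against 1853 in wild-type ACS2, a log2 ratio of 1.93. Its 3 control probe sets had 1.57, 2.14 and 2.18, so the plasmid marker differed more between the samples than any shuttle gene, and its part in their ratios was not tested. HIS3 read 882 in acs2-Ts1 and 1650 in wild-type ACS2, and whether its probes lie in the part that his3delta1 removes is not given in the sources used here. MET15 was near background, at 77.5 in acs2-Ts1 and 47.9 in wild-type ACS2. The mating type a gene STE2 was bright in both samples, at 2090 in acs2-Ts1 and 3398 in wild-type ACS2, and the alpha-type gene MF(ALPHA)1 lay below the background limit in both. The alpha-type gene STE3 went the other way, as its 59.0 in acs2-Ts1 and 214 in wild-type ACS2 were above the limit in both. The STE3 log2 ratio was -1.86, lower than the -1.03 of CAT2 and the -0.75 of CRC1. In wild-type ACS2 it read less than CAT2, at 378, and CRC1, at 294. That wild-type STE3 value was still above the acs2-Ts1 values of CAT2, 185, and CRC1, 174. How much of the CAT2 and CRC1 signals is background was not tested.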

How the data were processed

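The authors background-corrected 4 arrays, averaged the 2 per strain and brought the averages to one scale by lowess on controls, per the labels and design text. The deposited intensity values are on a linear scale. RMA is named in the submitters' processing notes. Which controls were used, how probes were summarised and all versions are not stated there. The arrays' number limits the precision, and single-array values were not analysed here.

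Of 10928 probe sets, 5498 matched 1 of 5449 genes through the platform annotation and a RefSeq R64 gene table. Coordinates in that table served to check whether chromosomal neighbours overlap the shuttle genes. Each gene was read by its brightest probe set without a suffix letter, or, for 81 genes that have no other, by one with a suffix. The 1746 probe sets of genes outside the species gave the background limit, 46.3 for acs2-Ts1 and 49.1 for wild-type ACS2. The authors' normalization was kept, and log2 ratios were computed with no test, since each group is 1 sample. The count of genes past a ratio of 2 and the trend fit were tested on simulated data. There most genes were unchanged and the trend was a straight line, unlike in these data. That test therefore checks the computation and not the scaling. Named genes are the shuttle genes, the 2 nearest in ratio, chromosomal neighbours, up to 3 at each end of the 5 lists, the uptake genes, ACS1, ACS2, CIT2 and genotype markers. URA3, PDB1 and PDA1 were named after their values were seen. Promoter motifs were planned and not run. The genes and lists were chosen with earlier results of these data known. Python 3.11.15, numpy 2.4.6, pandas 2.3.3 and statsmodels 0.14.6 were used.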

Additional observations from a re-analysis of the deposited data

How the results depend on the processing

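Alternatives to the deposited scale moved the shuttle genes most. Centred on the all-gene median, the log2 ratios were 2.60 for YAT1, 1.13 for YAT2, 0.10 for CAT2 and 0.37 for CRC1. With the trend with mean level removed by a lowess curve of span 0.30 they were 2.55, 1.45, 0.38 and 0.68 in the same order of genes, and with the trend with wild-type level removed, an alternative added after seeing the data, 2.83, 1.04, 0.33 and 0.60. In these 3 settings CAT2, called 2-fold lower as deposited, was above 0. With the background limit subtracted, also added later, CAT2 was -1.24 and CRC1 -0.94. In the other 22 of 36 recomputed ratios the value moved by less than the SD of the hybridization controls, 0.17. These were all ratios with centring on hybridization or actin controls, the mean of all probe sets, 32 added or the median background subtracted, and YAT1 and YAT2 with the background limit subtracted. The mean of all probe sets could not move a ratio, since each shuttle gene has 1 probe set. Centring on hybridization controls takes off only their median of -0.005, and the authors may have scaled on them. The 22 therefore includes ratios that could hardly move. The actin controls were added later. Past the 2-fold line lay 200 higher and 3048 lower genes of all measured, against 896 and 360 when centred on the all-gene median, 668 and 221 with the trend with mean level removed, and 86 and 1408 at a 3-fold threshold, where no shuttle gene passes. At a 1.5-fold threshold 329 genes were higher and 3925 (72.0%) lower, and CRC1 joins CAT2 as lower. Of 96 recomputed list and gene counts, 57 stayed within 1.5 times. Some of these could not change, since no list gene is read by a suffix probe set, so leaving those out alters no list count. Others are counts of 0 that stayed 0, as for higher genes among the 2 of carnitine uptake. The 57 is therefore no measure of stability. No paired analysis was possible because each group is 1 sample. Without single-array values, the spread between cultures is unknown, and YAT2 is limited most by its low signal over background.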

Other observations

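The activator genes CAT8, OAF1 and PIP2 had lower values in acs2-Ts1 as deposited, as did 86.4% of all genes. SIP4, the activator gene named above, went the other way. It read 554.6 in acs2-Ts1 and 83.5 in wild-type ACS2, a log2 ratio of 2.73. CAT8, for an activator of gluconeogenic genes, read 84.3 in acs2-Ts1 and 129 in wild-type ACS2, a log2 ratio of -0.61. OAF1 and PIP2, for the pair of factors that answer to oleate, had log2 ratios of -1.07 and -1.44. OAF1 read 262 in acs2-Ts1 and 550 in wild-type ACS2, and PIP2 read 202 in acs2-Ts1 and 549 in wild-type ACS2. Relative to the all-gene median of -1.12, CAT8 turns sign, while OAF1 lies close to that median. CAT8, OAF1 and PIP2 were chosen here after their values were seen, and these values measure transcripts, not the activity of the proteins.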
